A study of Mus musculus with 10 samples.

Results

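The cells described here are cycling blood endothelial cells (BECs) of mouse ear skin, that is, cells of the blood vessel lining whose RNA carried genes of cell division. They were chosen by measured values: a well had to hold at least 50000 reads of mouse genes, at least 200 detected genes and at most 10% mitochondrial reads, its summed CPM (reads of a gene per 1000000 reads of the well) of Flt1, Emcn and Podxl had to reach 300 and exceed that of the lymphatic genes Prox1, Flt4 and Mmrn1, and its summed CPM of the 7 cell cycle genes Mki67, Top2a, Ccnb1, Ccnb2, Cdk1, Cdc20 and Prc1 had to reach 500. Of 3456 wells, 3248 passed, 1490 were BECs and 70 of these BECs were cycling, 63 of them from mutant mice and 7 from control mice. The mutant mice (n = 5) had the strain label Pik3caH1047R;Cdh5-CreERT2 and were Cre+, so that the activating H1047R form of the lipid kinase subunit p110α was switched on in endothelial cells, blood and lymphatic alike, by 4-hydroxytamoxifen (4-OHT) put on the ears at 3 weeks of age. The controls were a C57BL/6J mouse that received no treatment (control 1) and a Cre- littermate of the mutant strain that received 4-OHT (control 2), and another control mouse was not analysed here. All mice were 5 weeks old, of mixed genders, and their ear cells were sorted by CD31 and Podoplanin into plates of 384 wells after exclusion of CD45, CD11b and Ter119 positive cells. The labels call the sorted cells LECs, whereas the counts and the study's methods give lymphatic endothelial cells (LECs) and BECs on each plate. The count tables have no row for the transgene, so a recombined cell could not be told from an unrecombined one.

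A dividing endothelial cell copies its DNA in S phase, condenses its chromosomes and builds a spindle in G2 and M phase, and then splits. Genes of DNA replication, such as those of the MCM helicase and of ribonucleotide reductase, are known to be switched on by E2F factors from late G1 onward, whereas genes of the spindle, kinetochore and mitotic kinases are switched on later by the DREAM, B-MYB and FOXM1 complexes acting through CHR and CCAAT elements. Most endothelial cells of resting adult skin stand outside the cell cycle. PI3K signalling is a known driver of endothelial growth, and it keeps FOXO transcription factors, which favour quiescence, out of the nucleus. 6 of the 7 genes that chose the cells act in G2 and mitosis, including cyclins B1 and B2, the kinase Cdk1 they activate, the spindle protein Prc1, the anaphase activator Cdc20 and topoisomerase IIα (Top2a). Mki67 encodes the proliferation marker Ki-67.

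To show what such genes have in their promoters, 3 examples are printed from RefSeq (build GRCm38.p6), each 250 bases before the annotated start, 5′ to 3′ on the gene's strand. Ccnb2 is one of the genes that chose the cells, Plk1 is a mitotic kinase gene and Mcm5 is a replicative helicase gene. Capitals mark matches, on either strand, to the CHR element, searched as TTTGAA and in its other common form TTTAAA, and to the CCAAT element. In Mcm5 they also mark 2 overlapping matches to an E2F motif, for which TTTCCCGC, TTTGGCGC, TTTCGCGC and TTTGCCGC were searched.
Ccnb2, chr9:70421555-70421804, minus strand: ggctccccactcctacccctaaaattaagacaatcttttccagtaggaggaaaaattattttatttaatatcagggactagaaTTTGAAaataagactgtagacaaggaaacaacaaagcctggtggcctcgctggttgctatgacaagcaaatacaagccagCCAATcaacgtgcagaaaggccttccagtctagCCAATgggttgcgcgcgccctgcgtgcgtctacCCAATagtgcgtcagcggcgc
Plk1, chr7:122159185-122159434, plus strand: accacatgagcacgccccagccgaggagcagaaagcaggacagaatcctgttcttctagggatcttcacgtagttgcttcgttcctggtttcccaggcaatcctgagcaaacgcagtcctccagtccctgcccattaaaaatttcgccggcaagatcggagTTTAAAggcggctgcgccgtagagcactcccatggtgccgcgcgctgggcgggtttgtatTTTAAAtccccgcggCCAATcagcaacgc
Mcm5, chr8:75109259-75109508, plus strand: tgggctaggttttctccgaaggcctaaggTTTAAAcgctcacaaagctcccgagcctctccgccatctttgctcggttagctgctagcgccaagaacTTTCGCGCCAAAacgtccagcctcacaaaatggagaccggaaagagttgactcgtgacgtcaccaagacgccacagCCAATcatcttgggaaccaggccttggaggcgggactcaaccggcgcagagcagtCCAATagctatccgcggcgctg
The Ccnb2 window held 3 CCAAT matches, 82, 49 and 16 bases before the start, and the Plk1 window held its CCAAT match 9 bases and its nearer CHR match 23 bases before the start. Of all 27025 promoters of this length, 25.5% held a CHR match, 34.5% a CCAAT match and 9% both, and 1.91% held an E2F match. Of the 10161 promoters of genes tested here, 17.7% held CHR, 36.5% CCAAT and 6.72% both, and 3.45% held an E2F match. Among the 50 mitosis genes that were higher in cycling BECs in the test described below and had a promoter in the table, these shares were 40%, 68% and 32% for CHR, CCAAT and both. Of the 40 S phase genes with a promoter, 22.5% held an E2F match, 15% CHR, 62.5% CCAAT and 10% both CHR and CCAAT. A high share of CCAAT was thus not particular to the mitosis genes. A match is a description of letters and no measured binding site.

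The 70 cells covered a wide range of the 7 genes that chose them. In mutant mice the summed level of these genes ran from 506.3 to 9068 CPM with a median of 2058 CPM, and in control mice from 512.5 to 3510 CPM with a median of 807.8 CPM. The level of 27 of the 70 cells lay under 1000 CPM. Just inside the limit lay cells at 506.3, 511.7, 512.5, 523.4 and 525.1 CPM, and just outside it lay BECs at 495.6, 492.5, 483.9, 481.5 and 476.7 CPM, so that the limit cut through a continuous range. As a description of the chosen cells, Mki67 was read in 82.5% of the mutant cycling BECs at a mean of 484.4 CPM, Top2a in 79.4% at 448.8 CPM, Ccnb2 in 76.2% at 425.8 CPM and Cdc20 in 84.1% at 445.6 CPM. In non-cycling BECs of the same mice the means of these 4 genes were 7.46, 3.46, 4.71 and 8.48 CPM.

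The label of cycling was then described with genes that were not part of the rule. Those of mitosis are closely tied to the rule genes and are no independent evidence of cycling. The summed level of the 67 genes of the mitosis list, none of which chose the cells, lay above the 95th percentile of control BECs (2161 CPM) in 46 of 63 mutant and in 2 of 7 control members. Among non-cycling BECs of mutant mice it did so in 44 of 1111 (3.96%). Aurkb, a mitotic kinase gene of that list, was read in 34 mutant members, in none of the control members and in 11.5% of non-cycling BECs of mutant mice. As a description from the genes that chose the cells, 55 of the 63 mutant members had reads of at least 3 of the 7 genes and 25 had reads of all 7, whereas each of the 7 control members had reads of only 1 or 2, 4 of them of Cdc20 alone. The control cell with the highest level, 3510 CPM, held 13.8 CPM in total over the 53 genes of the S phase list and 124.4 CPM over the mitosis list. In the control members the S phase list summed to 13.8 to 2532 CPM with a median of 943.7 CPM and the mitosis list to 124.4 to 3008 CPM with a median of 1801 CPM, against medians of 1041 and 750.2 CPM in non-cycling control BECs. The mean of the mitosis list was 1482 and 1734 CPM in the members of controls 1 and 2 and 893.7 and 833.0 CPM in their non-cycling BECs, while it was 8060 to 14115 CPM in the members of the mutant mice. By these means the control members lay between non-cycling BECs and mutant members on this list. By medians, members of mutant mouse 5 lay near those of control 2, at 2071 and 1801 CPM, while those of the other mutant mice were at 6928 to 13051 CPM. In mutant mouse 5, 9 of 18 members lay above 2161 CPM on this list. The 7 control wells are called control members of the rule in what follows, and no comparison of gene expression rests on them.

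Beyond the 7 genes, the mutant members spread over stages. Their mitosis list summed to 37.9 to 33486 CPM per cell with a median of 9137 CPM, and their S phase list to 100.6 to 17624 CPM with a median of 2926 CPM. The 95th percentile of control BECs for the S phase list was 2630 CPM, and 33 of 63 mutant members and 0 of 7 control members lay above it. The S phase list exceeded the mitosis list in 19 of the 63 mutant members.

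**Figure D1:**
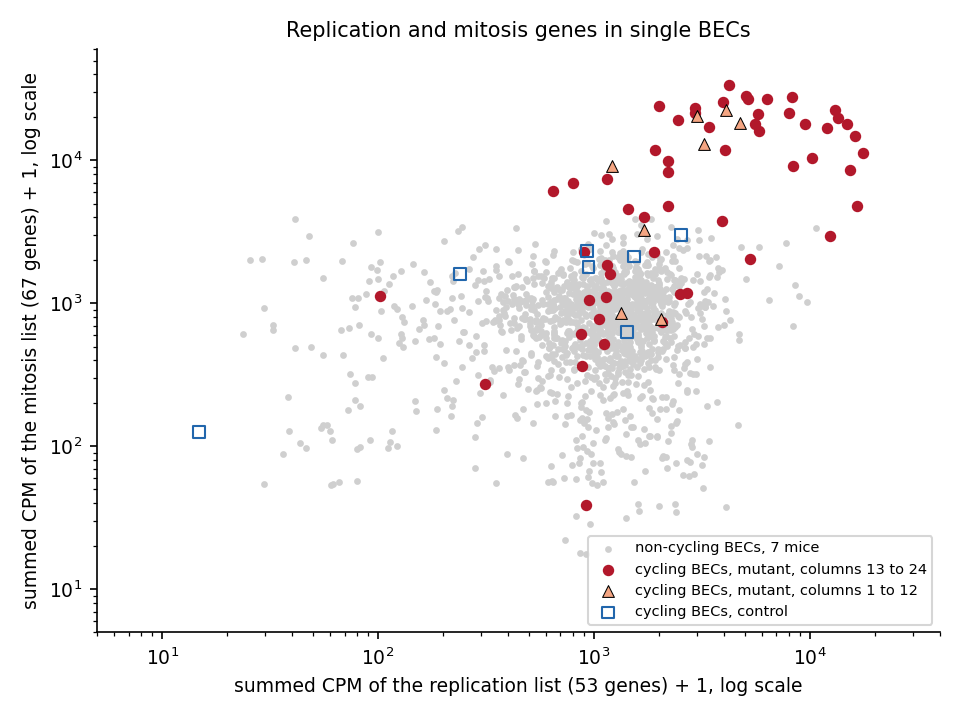
Summed CPM plus 1 of the S phase list (x axis) and of the mitosis list (y axis) in each BEC, both on log axes. Mutant cycling BECs reach 17624 CPM on the x axis and 33486 CPM on the y axis, and control members (open squares) lie within the cloud of non-cycling BECs or to its left.

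Some members differed from most BECs in plate position or carried markers of other cells, as did some non-cycling BECs. On each plate nearly all LECs lay in columns 1 to 12 and nearly all BECs in columns 13 to 24: 1463 of 1490 BECs lay in the latter, a layout seen in the counts and not given in the labels. Of the 63 mutant members 8 lay in columns 1 to 12, and 7 of those 8 carried reads of both Podoplanin (Pdpn) and Lyve1, markers of LECs, at 34.3 to 2021 CPM for Lyve1. Reads alone were common, as 98.1% of non-cycling BECs of mutant mice 1, 2, 3 and 5 had reads of Lyve1 and 79.6% of Pdpn. The LEC genes of the rule summed to 269.5 to 1085 CPM in these 8 members, against 350.0 to 1576 CPM for the BEC genes. Of all 70 members, 10 had at least 300 CPM of both the BEC and the LEC genes of the rule and 9 had at least 300 CPM of a marker list of keratinocytes, fibroblasts, mural, immune or Schwann cells. In mutant mice these counts were 9 and 7 of 63 members, against 92 and 151 of 1111 non-cycling BECs. The 4 LEC markers outside the rule (Lyve1, Pdpn, Ccl21a and Reln) were all detected in mutant cycling BECs, and their summed level per mouse ran from 233.8 to 574.0 CPM there, from 62.8 to 437.7 CPM in non-cycling BECs, and from 45.4 to 294.0 CPM in cycling BECs of columns 13 to 24. Of the immune markers Ptprc, Tyrobp and Cd52 were at 0 in all 63 mutant members, as was the Schwann marker Sox10. The other 2 immune markers, Lyz2 and Laptm5, had reads, and the summed immune list was 54.2 CPM in cycling BECs of mutant mouse 3, against 0.763 CPM in its non-cycling BECs and 0.662 CPM in its cycling BECs of columns 13 to 24. In cycling BECs of the other mutant mice it was 0 to 1.33 CPM. All 10 pan-endothelial markers were detected, at 8127 to 11556 CPM per mouse in cycling and 13533 to 14829 CPM in non-cycling mutant BECs. Each comparison below is also given for columns 13 to 24 alone where this changed it.

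In 4 of 5 mutant mice the share of cycling BECs was above that of both controls, and the groups overlapped. In the controls the share was 1.26% (2 of 159 BECs, 95% Wilson interval 0.346 to 4.47%) and 3.18% (5 of 157, 1.37 to 7.24%). In mutant mice 1 to 5 it was 4.92% (9 of 183), 8.7% (16 of 184), 5.15% (17 of 330), 1.72% (3 of 174) and 5.94% (18 of 303). Mutant mouse 4 lay below control 2, and its interval of 0.588 to 4.95% covered both controls. The means were 5.29% ± 2.49 (SD, n = 5) in mutant and 2.22% ± 1.36 (SD, n = 2) in control mice, a difference of 3.06 percentage points that did not pass an exact two-sided permutation test (p = 0.19, with 0.0952 the smallest p that 5 against 2 mice allow). The intervals cover counting error only.

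The share depended on how cycling was defined. When BECs with reads of at least 3 of the 7 genes after thinning to 50000 reads were counted, whatever their level, the controls had 0% (0 of 158, which allows up to 1.9%) and 1.28%, and mutant mice 1 to 5 had 20.1, 9.29, 6.67, 1.73 and 7.95%, a difference of 8.51 points (exact permutation p = 0.0952). When BECs over the 95th percentile of control BECs in the 7 genes or in the S phase list were counted, the controls had 8.18 and 12.1% and the mutant mice 16.7 to 30.1%, a difference of 15.3 points (exact permutation p = 0.0952). These limits, 49 CPM for the 7 genes and 2630 CPM for the S phase list, came from the same control BECs. The control shares were thus largely set in advance, and this difference is a description and no independent test of genotype. The groups did not overlap under either definition, and mouse 4 was the lowest of the mutants under both. The definition by number of genes used the same 7 genes as the rule and counted low levels of reads, whose source was not tested. It too is a description and no independent test of genotype. Of the members themselves, those with reads of at least 3 of the 7 genes made up 4.92, 8.7, 3.94, 1.15 and 4.95% of BECs in mutant mice 1 to 5 and 0 of 159 and 0 of 157 BECs in the controls, which allow shares of up to 1.89% and 1.91%. That limit was set after the control members were seen to have 1 or 2 genes, so its count of 0 is a description and was not used as a test. With wells of columns 13 to 24 alone, mutant mice exceeded controls by 2.44 points (p = 0.286, exact permutation test). The sequencing plates of mutant mice 1 to 4 came from another number series than those of mutant mouse 5 and the controls, so genotype and plate series cannot be told apart for these 4 mice. Within the series that holds both genotypes, mutant mouse 5 exceeded the mean of the controls by 3.72 percentage points. Of the 18 members of this mouse, 10 lay under 1000 CPM of the 7 genes.

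Outside the members, reads of the 7 genes were found in a larger share of BECs in each mutant mouse than in either control. The mean summed level over non-cycling BECs was 9.5 and 11.9 CPM in the controls and 52.4, 35.1, 36.3, 24.9 and 37.3 CPM in mutant mice 1 to 5, without overlap. Over all BECs, members included, it was 17.3 and 54.8 CPM in the controls and 160.4, 296.3, 193.3, 63.1 and 167.0 CPM in mutant mice 1 to 5, and in columns 13 to 24 mouse 4 was at 43.9 CPM, below control 2 at 55.4 CPM. These levels are of the genes that chose the cells and are given as a description. Among non-cycling BECs, 31.2 and 41.4% of control cells and 62.5 to 87.9% of mutant cells had at least 1 read of the 7 genes. After each cell was thinned to 50000 reads these shares were 8.92 and 13.8% in the controls and 31 to 66.1% in the mutants. The source of such reads was not tested, and under the 500 CPM rule no cell was counted as cycling from them. The definition by number of genes with reads after thinning, given above, did count further cells, whatever their level. It counted 37 of 184 BECs of mutant mouse 1, against 9 of 183 under the rule. The definition with the S phase list also counted cells above 49 CPM of the 7 genes.

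In each mutant mouse a smaller share of BECs than of LECs was cycling. Under the same rule, the share of cycling LECs was 16.3, 15, 9.09, 9.34 and 13.1% in mutant mice 1 to 5, with a mean of 12.6% ± 3.26 (SD, n = 5). The share in BECs was lower in 5 of 5 mice, by 7.27 percentage points on average (exact sign-flip permutation p = 0.0625, the smallest that 5 pairs allow). Without mixed wells, which had both BEC and LEC genes and whose removal took the mutant LECs from 1283 to 470, it was lower by 13.6 points. In the controls the LEC shares were 2.19 and 2.29%, and the BEC minus LEC difference was −0.0145 percentage points on average. The difference between cell types was 7.26 points more negative in mutant than in control mice, with an exact permutation p of 0.0952, the smallest possible.

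In each mutant mouse cycling BECs also yielded more reads per spike-in read. Per read of the ERCC spike-in RNA, which is added in equal amounts to each well, the median cycling BEC yielded 2.36, 1.83, 1.7, 1.51 and 1.4 times the mouse reads of the median non-cycling BEC of the same plate in mutant mice 1 to 5. The log2 ratio was 0.789 ± 0.291 (SD, n = 5), a mean fold of 1.73, and was positive in 5 of 5 mice (exact sign-flip permutation p = 0.0625, the smallest possible). In columns 13 to 24 alone the fold was 2.35, 2.17, 1.7, 1.24 and 1.4 in mutant mice 1 to 5. The control members were at 0.897 and 0.853 times, and in mutant LECs the fold lay between 1.68 and 2.61. At a fixed 50000 reads per cell, mutant cycling BECs also had 1010 ± 423.5 more detected genes than non-cycling BECs (SD, n = 5, exact permutation p = 0.0625). All fold changes given below are relative to the total reads of a cell sum, and a gene whose share of reads stayed level was higher per spike-in read in these mice.

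Expression was compared between cycling and non-cycling BECs of the same mutant mice by adding up the reads of the cells of each kind per mouse. Mutant mouse 4, with 3 cycling BECs, was under the minimum of 5 cells, so the fit rests on mice 1, 2, 3 and 5 and values are given in that order, as CPM after TMM scaling. Of 14728 genes tested by the edgeR quasi-likelihood test with mouse as a block, 299 passed a Benjamini-Hochberg adjusted p of 0.05 (2.03%), 223 higher (1.51%) and 76 lower (0.516%) in cycling BECs. The 13 genes of the cell rules were left out of the test. In columns 13 to 24 alone 240 of 14580 genes passed (1.65%), of which 202 were also called in the whole set. The median log2 fold change of all genes was −0.28. It was −1.21 for genes at a mean log2 CPM under 3, −0.49 at 3 to 5 and 0.03 at 5 or more. Lower values of weakly expressed genes are read against that shift. With cells thinned to 50000 reads 270 genes were higher and 171 lower, and leaving out mutant mouse 1, 2, 3 or 5 left 156, 100, 102 and 186 genes.

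Genes of mitosis and G2 made up the largest group of listed genes that rose. Of the 67 genes of the list 63 passed the test as higher and none as lower, with a median log2 fold change of 5.96, and 46 to 58 passed when 1 mouse was left out. These genes are closely tied to those that chose the cells, so their count describes the label and is no independent evidence of cycling. Aurkb (ENSMUSG00000020897, chr11:69045647-69051664 in GRCm38), the kinase of the chromosomal passenger complex, was at 145.4, 321.8, 305.5 and 194.1 CPM in cycling and at 2.19, 1.22, 0.813 and 5.36 CPM in non-cycling BECs of the 4 mice. All 4 cycling values lay above all 4 non-cycling values, and the log2 fold change was 6.94 ± 0.70 (SE, edgeR adjusted p = 0.00229).

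The polo kinase gene Plk1, whose promoter is printed above, was at 461.6, 295.4, 342.7 and 249.3 CPM against 1.96, 2.02, 3.2 and 0.896 CPM, a log2 fold change of 7.47 ± 0.36 (SE, edgeR adjusted p = 0.00013). Every cycling sum lay at 249.3 CPM or more and every non-cycling sum at 3.2 CPM or less. Also called higher were Birc5, which encodes survivin (log2 fold change 6.85), Ube2c, a ubiquitin conjugating enzyme of the anaphase-promoting complex (6.73), Kif11, a spindle motor (7.61), and Nusap1, a spindle protein (6.20). Bub1, a kinase of the spindle checkpoint, had the largest called fold change of the list at 8.43 ± 1.26 on the log2 scale. Hjurp, the chaperone of the centromeric histone encoded by Cenpa, had the smallest at 1.58 ± 0.23, whereas Cenpa itself rose by 5.29 ± 0.25. Foxm1, a transcription factor of G2 genes, was at 98.1, 233.1, 146.6 and 129.5 CPM against 5.55, 13.3, 2.56 and 0.7 CPM.

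Among the 10 genes outside every list that rose most were further genes of division. Aspm, a spindle pole protein gene, had a log2 fold change of 8.33 and Cep55, which acts in the final cut of cytokinesis, one of 8.18. Kif18b encodes a mitotic kinesin, Troap a spindle protein, Sgo1 a protector of sister chromatid cohesion and Ccnf cyclin F, and their log2 fold changes were 8.17, 8.07, 7.80 and 7.58. The histone H1 gene Hist1h1b was at 5.98, 33.4, 17.7 and 9.34 CPM in cycling sums. Pif1 (8.28), a DNA helicase gene, no longer passed in columns 13 to 24 (6.79, edgeR adjusted p = 0.182). Ankle1 and Arhgef39 completed the list at 8.14 and 7.88. In the non-cycling sums these genes were at 1.64 CPM or less, so the size of each fold rests on few reads.

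Of the replication genes fewer passed. Of the 53 S phase genes 12 were called higher and none lower, with a median log2 fold change of 1.96 and 47 of 53 positive, and in columns 13 to 24 16 were called. Without mutant mouse 1, 2 or 3 the count was 7, 5 and 7. The subunits of ribonucleotide reductase, which makes the DNA precursors, behaved unequally in size. Rrm2 (ENSMUSG00000020649, chr12:24708241-24714146) was at 279.2, 502.1, 328.6 and 212.1 CPM in cycling and 2.13, 6.61, 4.96 and 8.23 CPM in non-cycling BECs, the largest fold change of the list at 6.00 ± 0.44 (SE, edgeR adjusted p = 0.000451). Rrm1 was at 526.2, 632.6, 303.2 and 156.9 CPM against 56.7, 87.3, 54 and 39.3 CPM, a log2 fold change of 2.64 ± 0.25. Both were separated in all 4 mice.

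Tk1, the thymidine kinase gene, rose by 5.92 ± 0.41 on the log2 scale and Tyms, the thymidylate synthase gene, by 2.16 ± 0.24. In columns 13 to 24 Tyms had a log2 fold change of 1.86 and an edgeR adjusted p of 0.0638. Of the MCM helicase genes Mcm5 was at 233.0, 400.1, 113.9 and 141.1 CPM against 38.9, 32.8, 25 and 21.4 CPM and rose by 2.77 ± 0.31, and Mcm7 rose by 2.40 ± 0.34. Lig1, the ligase that joins Okazaki fragments, rose by 2.73 ± 0.44, Uhrf1, which guides maintenance of DNA methylation, by 4.09 ± 0.78 and the clamp loader gene Rfc2, the smallest called change, by 1.52 ± 0.23. Pcna, the sliding clamp gene and a common proliferation marker, was at 122.3, 229.8, 168.4 and 108.4 CPM against 63.1, 69.9, 89.3 and 58.7 CPM. It was higher in each of the 4 mice with a log2 fold change of 1.12 ± 0.27, which did not pass the test (edgeR adjusted p = 0.0857), while in columns 13 to 24 it did (1.32, edgeR adjusted p = 0.0468), as in 4 of 20 alternatives in all.

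Genes of chromatin and tubulin followed the same direction at higher base levels. Of 20 genes 16 were called higher and none lower, with a median log2 fold change of 1.87, and without mutant mouse 2 or mutant mouse 3 9 genes were. Stmn1 (ENSMUSG00000028832, chr4:134468320-134473843), which encodes the microtubule destabiliser stathmin, was at 497.2, 608.6, 536.0 and 340.3 CPM against 37.6, 32.1, 28.1 and 17.5 CPM, a log2 fold change of 4.13 ± 0.21 (SE, edgeR adjusted p = 0.00013), and it passed under each of the 20 alternatives tried. Reads of it were found in 88.3% of cycling and 49.6% of non-cycling BECs. The lamin gene Lmnb1 had the largest change of the list, 4.51 ± 0.46, and Tubb4b, a β-tubulin gene expressed in every mouse's non-cycling BECs at 272.8 CPM or more, the smallest called one, 1.06 ± 0.16. Hmgb2, a chromatin protein gene, rose by 3.42, the variant histone gene H2afz by 1.93, Tubb5 by 1.28 and the maintenance DNA methyltransferase gene Dnmt1 by 1.81.

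Few regulators of G1 passed the test. Of 23 genes tested 2 were called higher, Ccna2 and E2f8, and none lower. Ccna2, whose product cyclin A2 acts in S phase and G2, was at 415.1, 752.8, 541.5 and 317.0 CPM against 18.4, 13.1, 20.7 and 13.8 CPM, a log2 fold change of 4.88 ± 0.30 (SE, edgeR adjusted p = 0.000168). E2f8, an atypical E2F repressor gene, had a log2 fold change of 6.49 ± 0.84, but in columns 13 to 24 it had 4.92 and did not pass (edgeR adjusted p = 0.132), and it passed in 12 of 20 alternatives. Ccnd1, the cyclin D1 gene of G1 entry, was at 667.3, 269.6, 329.8 and 278.0 CPM against 256.1, 340.9, 219.2 and 167.7 CPM, with overlap between the groups (log2 fold change 0.59, edgeR adjusted p = 0.32; −0.06 in columns 13 to 24). Ccnd2, the cyclin D2 gene, was lower in each mouse, at 19.6, 100.0, 42.5 and 47.3 CPM against 207.0, 163.3, 238.6 and 151.5 CPM. Its log2 fold change was −2.06 ± 0.45, which passed in columns 13 to 24 (−2.02, edgeR adjusted p = 0.00999) and not in the whole set (edgeR adjusted p = 0.0629). Cdkn1a, the gene of the cell cycle inhibitor p21, had a log2 fold change of 0.29, and of −0.34 in columns 13 to 24, with 2.19 in mutant mouse 1 and −0.52 to −0.14 in the other 3 mice.

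Among genes that mark the kind of blood vessel, 4 of 12 capillary and 3 of 10 venous genes were called lower in cycling BECs, and none of 12 arterial genes passed the edgeR test. In columns 13 to 24 the counts were 2 capillary and 2 venous genes, and without mixed wells 1 and 2. The capillary genes called were Lpl, Cd36, Cd300lg and Rgcc, and all 12 had a negative log2 fold change with a median of −1.45, against −0.28 over all genes. Without mutant mouse 1, 2, 3 or 5 the count was 1, 2, 1 and 3. Lpl (ENSMUSG00000015568, chr8:68880491-68907448), the gene of the lipoprotein lipase that acts on the capillary wall, was at 1.36, 1.95, 3.58 and 5.94 CPM in cycling and 48.3, 52.6, 114.4 and 169.7 CPM in non-cycling BECs. The groups did not overlap, and the log2 fold change of −4.92 ± 0.46 (SE, edgeR adjusted p = 0.00164) passed under each of the 20 alternatives. Reads of Lpl were found in 41.7% of cycling and 51.9% of non-cycling BECs, so the share of cells with reads differed less than the level did. The cycling BECs of the 4 mice held 77 reads of Lpl in all and the non-cycling ones 30576, so the cycling share rests on few reads.

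Cd36 (ENSMUSG00000002944, chr5:17781690-17888801), which encodes a fatty acid transporter, was at 199.8, 756.9, 357.4 and 544.5 CPM against 870.1, 1286, 1270 and 1041 CPM, a log2 fold change of −1.41 ± 0.24 (SE, edgeR adjusted p = 0.0279). Every cycling value lay below every non-cycling one, and the call held in 13 of 20 alternatives. Cd300lg, a gene of capillary and high endothelial venule cells, fell by 1.49 ± 0.22 and Rgcc, which encodes a regulator of the cell cycle and an established capillary marker, by 1.66 ± 0.29. In columns 13 to 24 Lpl and Cd36 passed, at −4.68 and −0.98, while Cd300lg (−1.05, edgeR adjusted p = 0.055) and Rgcc (−1.23, edgeR adjusted p = 0.154) did not. Fabp4, a fatty acid binding protein gene, and the water channel gene Aqp1 had log2 fold changes of −0.89 and −1.37 and did not pass the test (edgeR adjusted p = 0.0705 and 0.106).

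Of 10 venous genes 3 were called lower and none higher, and 1 or 2 were called lower when 1 mouse was left out. Ackr1 (ENSMUSG00000037872, chr1:173331886-173333750), the atypical chemokine receptor of venules, was at 32.1, 116.1, 41.5 and 87.4 CPM against 436.9, 342.6, 350.0 and 267.6 CPM, a log2 fold change of −2.49 ± 0.41 (SE, edgeR adjusted p = 0.0227). Lrg1, a secreted glycoprotein gene of venous cells, was at 540.9, 348.9, 410.3 and 465.7 CPM against 1562, 993.2, 979.2 and 1116 CPM and fell by 1.39 ± 0.13 (SE, edgeR adjusted p = 0.00164). Both were lower without overlap, and both passed in columns 13 to 24, at −2.08 and −1.02. Over the 20 alternatives Ackr1 passed in 16 and Lrg1 in 19. Vwf, the gene of the von Willebrand factor, fell by 0.91 ± 0.18 in the whole set (edgeR adjusted p = 0.0484) and had −0.47 in columns 13 to 24 (edgeR adjusted p = 0.0857). Selp, the P-selectin gene, and Plvap, a gene of fenestrated and venous endothelium, had log2 fold changes of −1.62 and −0.55 and did not pass (edgeR adjusted p = 0.053 and 0.135).

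The 12 arterial genes had a median log2 fold change of −1.07, and all 12 were negative, but 0 passed the edgeR test. Gja4, the connexin 37 gene, was at 32.9, 21.7, 75.4 and 114.9 CPM against 208.8, 78.1, 119.9 and 140.1 CPM, lower in each mouse but with overlapping groups (log2 fold change −1.35, edgeR adjusted p = 0.175). Of 17 genes of angiogenic tip cells 1 was called higher and 1 lower. Dll4, the Notch ligand gene of tip and arterial cells, fell by 2.22 ± 0.32 (35.3, 55.5, 42.4 and 21.4 CPM against 193.0, 139.6, 220.4 and 137.7 CPM, edgeR adjusted p = 0.0135), and passed in 11 of 20 alternatives. Apln, a leading tip cell gene, was at 829.1, 1493, 1132 and 773.8 CPM against 739.8, 1211, 964.3 and 592.2 CPM, a log2 fold change of 0.27 that did not pass. Angpt2 was at 41.6, 1.95, 1.97 and 1.56 CPM against 90.5, 148.8, 118.2 and 83 CPM. This gene of the vessel destabiliser angiopoietin-2 was lower in each mouse (log2 fold change −4.95, edgeR adjusted p = 0.0541) and passed in columns 13 to 24 (−5.64, edgeR adjusted p = 0.00134).

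None of the 10 pan-endothelial genes passed the edgeR test, but all 10 had a negative log2 fold change with a median of −0.34, against −0.28 over all genes and 0.03 over genes at a mean log2 CPM of 5 or more. Their summed level was lower in cycling BECs of each of the 5 mutant mice, as given above. Pecam1, the CD31 gene, was at 1511, 2423, 2392 and 2310 CPM against 2634, 2651, 2903 and 2834 CPM (log2 fold change −0.38, edgeR adjusted p = 0.193). Cdh5, the VE-cadherin gene whose regulatory sequence drives the Cre, was at 391.2, 698.5, 449.4 and 498.5 CPM against 630.3, 573.8, 516.5 and 492.8 CPM (−0.15, edgeR adjusted p = 0.736).

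Few genes of growth and quiescence were called. None of the 22 genes of ribosome biogenesis and none of the 15 glycolysis genes passed the edgeR test, and their medians were 0.61 and 0.06 on the log2 scale, the former 0.10 in columns 13 to 24. Of the 14 genes of the FOXO list all were negative with a median of −0.78, and Txnip was the 1 called lower. Txnip (ENSMUSG00000038393, chr3:96557957-96561883), which encodes an inhibitor of thioredoxin and of glucose uptake, was at 1014, 1115, 1014 and 903.2 CPM against 2008, 1730, 1859 and 1466 CPM, a fall of 0.80 ± 0.12 on the log2 scale (edgeR adjusted p = 0.0133; −0.60 in columns 13 to 24, edgeR adjusted p = 0.0283). Pik3ip1, the gene of a PI3K inhibitor, was at 7.88, 37.3, 34.7 and 33.8 CPM against 127.1, 113.6, 98.9 and 144.1 CPM (log2 fold change −2.25, edgeR adjusted p = 0.0651). The groups of Pik3ip1 did not overlap, but the test was not passed. Of 13 immediate early genes 1 passed, Zfp36, an mRNA decay factor gene (−1.18, edgeR adjusted p = 0.0415; −1.37 and 0.123 in columns 13 to 24), and in columns 13 to 24 it was instead the antiproliferative gene Btg2 (−2.04, edgeR adjusted p = 0.0217).

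The genes outside every list that fell most were sparse. Slc26a10 was at 0.544, 0, 0.894 and 0.283 CPM against 60.7, 65.2, 101.7 and 43.2 CPM (log2 fold change −7.46, edgeR adjusted p = 0.00442), with reads in 11.7% of cycling and 22.1% of non-cycling BECs. Il16, an interleukin gene, had a log2 fold change of −5.83, Cish, a feedback inhibitor of cytokine signalling, −5.60, Traf4 −7.46 and Slc10a6 −6.23. Nlrp10, Sectm1b and Abcb9 had 1 to 3 reads in the cycling sums, and the non-cycling share of reads exceeded the cycling one 427.5 times (95% counting interval 76.7 to 16887), 249.1 times (68.9 to 2057) and 152.5 times (52.1 to 739.6). These intervals treat reads as independent, which they are not, and leave out variation between cells and mice. Coro6 and Cep170b, at −6.93 and −6.77, did not pass in columns 13 to 24 (edgeR adjusted p = 0.0565 and 0.0663), nor did Cish (edgeR adjusted p = 0.0632). The 10 genes had reads in 1.67 to 25% of cycling and in 9.04 to 34.6% of non-cycling BECs.

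Some higher genes followed the members of columns 1 to 12. Lyve1, a hyaluronan receptor gene of lymphatic vessels, was the 1 called gene of the 4 LEC markers outside the rule, at 682.3, 102.2, 183.2 and 353.3 CPM against 42.7, 29, 35.3 and 115.6 CPM (log2 fold change 2.42, edgeR adjusted p = 0.0242). In columns 13 to 24 it was 0.24 (edgeR adjusted p = 0.84). Pdpn went from 1.94 to −0.35, and neither passed. Plaur, the urokinase receptor gene and the 1 tip cell gene called higher, was at 321.0, 69.6, 218.6 and 156.1 CPM against 28.9, 28.9, 43.8 and 59.5 CPM (edgeR adjusted p = 0.0484), and did not pass in columns 13 to 24 (0.89, edgeR adjusted p = 0.42). Ccl2, a monocyte chemokine gene, and Sema3d, a guidance gene, both named here after their values were seen, went from 4.09 to 0.46 and from 2.97 to −1.18. Rgs5, a pericyte gene, was called lower at −4.13 (edgeR adjusted p = 0.0475) and not in columns 13 to 24 (−3.74, edgeR adjusted p = 0.11). The summed level of the 5 mural markers per mutant mouse was 3.16 to 54.9 CPM in cycling and 40.2 to 189.8 CPM in non-cycling BECs, with none of the 5 at 0 in either, and its part in the other lower genes was not tested. No gene of the keratinocyte, fibroblast or Schwann lists passed the edgeR test (5, 3 and 1 genes tested), and no immune marker was abundant enough to be tested.

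The same contrast in LECs of the same mice was set against that of BECs to find genes whose change with cycling differed between the cell types. In the interaction test 0 of 17508 genes passed (0%, edgeR), 1368 had an unadjusted p under 0.05, and DESeq2 called 437. With BECs taken from columns 13 to 24 and LECs from columns 1 to 12, 29 of 17499 passed in edgeR (0.166%). Of listed genes Angpt2 and Aqp1 were among them, both with the more negative change in BECs. Side by side, the log2 fold change in BECs and LECs was 7.47 and 8.42 for Plk1, 6.94 and 7.20 for Aurkb, 6.00 and 5.00 for Rrm2, and 4.13 and 3.29 for Stmn1. For vessel genes it was −4.92 and 0.15 for Lpl, −2.49 and −0.65 for Ackr1 and −1.37 and 0.65 for Aqp1. It was −1.39 and −1.63 for Lrg1, −1.41 and −2.06 for Cd36, −1.49 and −2.77 for Cd300lg, and −1.66 and 0.27 for Rgcc. For Vwf it was −0.91 and −1.90, and for Dll4 −2.22 and −2.61. List medians in BECs and LECs were −1.45 and −1.13 (capillary), −0.82 and −0.98 (venous) and −1.07 and −1.08 (arterial). Lower vessel genes were thus not particular to cycling BECs. For Lpl the interaction had an unadjusted p of 0.00132 and did not pass after adjustment in the whole set. The LEC contrast rested on 5 mice and more cells, with 156 cycling LECs of mutant mice against 63 cycling BECs.

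The power of the contrast was checked on simulated counts. The cycling BECs of mutant mice held 138975 to 1909717 reads (median 314863) and the non-cycling ones 50360 to 1118990 (median 255236). On simulated counts for the cycling against non-cycling contrast over 14728 genes with known changes, the test called 5 of 100 genes changed 2-fold, 27 of 100 changed 4-fold and 1 of 14528 unchanged genes. A gene that did not pass is therefore not shown to be unchanged. The simulation gave both kinds of sum the same dispersion per gene. The real sums held 9 to 18 cycling and 168 to 313 non-cycling cells. The count of 1 among unchanged genes is thus no measure of the error rate of the real contrast. For 8 named genes 1 of the 4 mice stood apart from the others, namely Stmn1, Pif1, Hjurp, Angpt2 and Cdkn1a (mutant mouse 1), Ccna2 and Pcna (mutant mouse 2) and Cep170b (mutant mouse 5).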

How the data were processed

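Dermal endothelial cells were sorted into plates and sequenced by Smart-Seq2, which reads whole transcripts and has no molecular identifiers, so reads are not independent molecules. The authors deposited raw read counts per gene and well, made per the labels with TopHat2 2.1.1, SAMtools 0.1.18 and featureCounts of Subread on GRCm38; R 3.5.1 and Seurat 3.1.1 were also named. The 9 tables used held 46517 Ensembl genes and 92 ERCC spike-ins; 46005 genes took a symbol from GENCODE vM21, and no well repeated another. Plates of a mouse were added together. Plates held 99738886 to 151102969 non-ERCC reads. No doublets were called; wells with at least 300 CPM of both rule sets were left out in an alternative.

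Reads were summed per mouse over its cycling and non-cycling BECs, with at least 5 cells per sum, and tested with edgeR 4.0.16 (filterByExpr, TMM, quasi-likelihood) in R 4.3.3, with mouse as the block because both sums came from the same animal. Shares were compared over mice with exact permutation tests (scipy 1.17.1), two-sided. Intervals were 95% Wilson intervals, and a count of 0 was given the limit of 3 cells of the total. DESeq2 1.42.0, other cutoffs (250 and 1000 CPM), thinning to 50000 reads and leaving out mice were alternatives. The cells, gene lists and tests were chosen with earlier results of these data known. Genes named outside the lists were the 10 called genes per direction with the largest log2 fold change, a mean log2 CPM of at least 3, the same direction in all mice fitted and no predicted-gene symbol. Other genes named are list members with the largest, smallest or most telling values, and some list members are not reported here. For the difference between cell types the rule would have named 5 per direction and found none.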

Additional observations from a re-analysis of the deposited data

Results flagged for a closer look

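In 8 of 85 named values over the 4 mice of the fit, 1 mouse stood apart from the other 3 (log2 of cycling over non-cycling CPM plus 1, Dixon's criterion at 95%). Chance alone would set 1 mouse apart in about 1 of 20 such groups. Mutant mouse 1 stood apart for Stmn1 at 3.69 against values up to 4.21 in the others, for Pif1 at 6.58 against 4.71 to 4.96, for Hjurp at 0.95 against 1.75 to 1.80, for Angpt2 at −1.10 against −5.66 to −5.04 and for Cdkn1a at 2.19 against −0.52 to −0.14. Mutant mouse 2 stood apart for Ccna2 at 5.74 against 4.42 to 4.64 and for Pcna at 1.70 against 0.87 to 0.95. Mutant mouse 5 stood apart for Cep170b at −2.32 against −4.12 to −3.89. Of the 9 cycling BECs of mutant mouse 1, 2 lay in plate columns 1 to 12, and without mouse 1 the log2 fold change of Cdkn1a was −0.29. The part of those wells in the values of mouse 1 was not tested.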

How the results depend on the processing

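The share of cycling BECs between genotypes, the mean level of the 7 genes and the share in BECs against LECs kept their direction under each alternative run for them, at exact permutation p of 0.0625 or more, where their designs cannot pass 0.05. The other exact tests over mice had no alternative run. The difference in the share of cycling BECs between genotypes ran from 2.44 to 15.3 percentage points (8.51 with 3 of the 7 genes after thinning, 15.3 with the S phase list as well), and from 2.1 to 4.03 without 1 mouse. The limits behind the value of 15.3 were taken from the control BECs themselves, and the value of 8.51 counted reads of the 7 genes whatever their level. The difference between BECs and LECs, −7.27 points, was −13.6 without mixed wells and otherwise −8.28 to −5.97. The count of genes that differed between cycling and non-cycling BECs, 299, lay between 205 and 441 except under the following. It moved to 147 with the first plate of each mouse, to 185 without mixed wells and wells with other cell type markers (an alternative added after seeing the data), to 100 to 186 without 1 mouse (156, 100, 102 and 186 without mutant mouse 1, 2, 3 and 5), to 744 without the replicate block that pairs the sums of a mouse, and to 1893 (801 higher, 1092 lower) with DESeq2. The 744 calls split into 368 higher and 376 lower. The count for the difference between BECs and LECs, 0, moved to 1 with thinned cells, 12 with cells over 250 against under 100 CPM, 1 without mixed wells and wells with other markers, 29 in the plate columns of each cell type, 437 with DESeq2 and 0 to 2 without 1 mouse. The causes were not tested.

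Of the single-gene values under alternatives, 1261 kept direction and side of the threshold, 55 gained and 275 lost a call, and 15 turned direction. Without mixed wells, without these and wells with other markers, and in columns 13 to 24, Sema3d turned to −0.84, −0.58 and −1.18, Pdpn to −0.36, −0.42 and −0.35, and Cdkn1a to −0.33, −0.27 and −0.34. Without mixed wells and in columns 13 to 24, Ccnd1 turned to −0.00 and −0.06 and Cdh5 to 0.06 and 0.02. Without 1 mouse Cdh5 ran from −0.33 to 0.03 and Cdkn1a from −0.29 to 0.58, the value that turned being that without mutant mouse 1.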
